A study of Mus musculus with 29 samples.

Results

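Fat surrounds lymph nodes and the kidney, and 10 genes that mark white and brown adipocytes were read across 14 RNA libraries of lupus-prone NZB/W mice. The genes were taken by name: Adipoq, Cfd, Retn and Lep, whose products adipocytes secrete, Plin1, Cidec and Cidea, whose products coat the lipid droplet, Ucp1, the uncoupling protein of brown fat, and Fabp4 and Pparg, a fatty acid carrier and a transcription factor. All 10 of 10 were among the 13982 genes of the table. All 7 lymph node libraries held reads of at least 8 of the 10 genes. Of the 3 TLS (tertiary lymphoid structures, immune aggregates within the kidney), only the one from mouse H20 held reads of more than 3 of them. The 4 kidney libraries held reads of Fabp4 alone.

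All mice were (NZBxNZW)F1, and poly(A) RNA was sequenced on an Ion Torrent PGM. From proteinuric mice there were kidney libraries of mouse H6 (39 weeks), mouse H20 (36 weeks), mouse H115 (25 weeks) and mouse H117 (32 weeks), TLS of mice H6, H20 and H115, and lymph nodes of mice H6, H20 and H117. The TLS were immune aggregates dissected by hand under a loupe, with kidney tissue taken from the organ that held them. The other nodes came from 3 anti-dsDNA antibody-positive mice, replicates 1, 2 and 3, aged 28, 29 and 18 weeks, and from 1 young mouse aged 4 weeks. The antibody-positive nodes were extracted with a miRNeasy kit and everything else with TRIzol, so that stage and kit cannot be told apart. The study describes the nodes as draining the kidney, and the sources used here do not say whether fat around a node or a TLS was trimmed off. It also saw TLS in the perirenal fat of some mice, and describes the dissected TLS as taken from proteinuric kidney.

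The libraries held between 343825 and 443379 reads. Ribosomal RNA genes took 59.6% of the reads of the kidney of mouse H117, 32.7% of the node of mouse H6 and 24.6% of the TLS of mouse H115, and at most 7.57% elsewhere. Shares below are percentages of the reads outside ribosomal RNA genes. In what follows, reads are whole reads recovered from the deposited values, and normalized reads are those reads divided by the size factor of the library. A gene with 0 reads in a library may have had up to 3, the floor, which was worth between 2.36 and 5.32 normalized reads. Libraries of one group came from mice with different codes. The p-values measure the spread between these samples, which limma pools over the groups of a fit. A group at 0 reads throughout adds almost no spread of its own.

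White adipocytes store triglyceride in 1 large droplet and release hormones into the blood. Brown adipocytes hold many small droplets and many mitochondria, and Ucp1 in the inner mitochondrial membrane lets protons pass so that fuel is burnt as heat. Adipoq, Cfd, Plin1, Cidec, Fabp4 and Pparg are made by both kinds of fat cell, Lep and Retn chiefly by white ones, and Ucp1 and Cidea chiefly by brown ones and by the brown-like cells that arise in white depots. Both kinds depend on Pparg, which binds DNA together with a retinoid X receptor, and on C/EBP factors. In bulk tissue, fewer adipocytes and less RNA per adipocyte cannot be told apart.

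Since Adipoq, Retn, Plin1, Cidec, Cidea and Ucp1 were all at 0 in the same 6 libraries (4 kidneys and 2 TLS), the 250 bases before the transcription start are shown for 3 of them, a hormone, a droplet protein and the thermogenic gene. The sequences are from RefSeq on GRCm38.p6, written 5' to 3' on the strand of the gene, and 8 of the 10 genes matched the promoter table (11 windows). Capitals mark CCAAT in Adipoq, the C/EBP-type sequence TTGCNNAA in Plin1 and the nuclear receptor half-site AGGTCA in Ucp1, each searched on both strands.
Adipoq (chr16:23146286-23146535, plus strand): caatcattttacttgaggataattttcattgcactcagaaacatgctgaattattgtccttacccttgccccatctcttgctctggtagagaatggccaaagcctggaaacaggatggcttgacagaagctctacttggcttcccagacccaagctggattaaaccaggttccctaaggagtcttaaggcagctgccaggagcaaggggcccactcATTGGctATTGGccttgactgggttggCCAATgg
Plin1 (chr7:79732777-79733026, minus strand): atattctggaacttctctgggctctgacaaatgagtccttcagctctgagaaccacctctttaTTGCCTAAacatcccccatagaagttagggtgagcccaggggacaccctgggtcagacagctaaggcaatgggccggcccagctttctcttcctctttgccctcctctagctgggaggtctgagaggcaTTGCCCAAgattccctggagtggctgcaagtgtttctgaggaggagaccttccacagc
Ucp1 (chr8:83290098-83290347, plus strand): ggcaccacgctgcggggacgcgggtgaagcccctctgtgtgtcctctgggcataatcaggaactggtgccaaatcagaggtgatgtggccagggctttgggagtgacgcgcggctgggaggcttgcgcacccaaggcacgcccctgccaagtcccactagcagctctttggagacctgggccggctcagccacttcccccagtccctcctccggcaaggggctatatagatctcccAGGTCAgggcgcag
In windows of 300 bases, which also hold the first 50 after the start, AGGTCA was in 3 of the 11 windows of these genes (those of Ucp1 and 2 of Pparg) and in 16.3% of 32851 windows of all genes. TTGCNNAA was in 4 of the 11 windows (Cidec, Lep, Plin1 and Pparg) and in 10.8% of all windows. CCAAT was in 3 of the 11 windows (Adipoq and Pparg) and in 37.4% of all windows. The DR1 repeat, a pair of AGGTCA half-sites 1 base apart, was in none of the 11 and in 0.0396% of all windows, and TGACGTCA was in none of the 11 and in 1.79% of all. These matches describe the letters in the windows and nothing more.

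Of the 4 genes of secreted products, Adipoq and Cfd had reads in 7 of 7 nodes, Retn in 6 and Lep in 3. Adipoq (ENSMUSG00000022878, chromosome 16, 23146536-23158028 on GRCm38), the gene of the hormone adiponectin, had 56 reads in the young node, 17, 99 and 179 in antibody-positive nodes 1, 2 and 3, and 15, 62 and 11 in the proteinuric nodes of mice H6, H20 and H117. In TLS it had 18 reads in mouse H20, and in the TLS of mice H6 and H115 and in all 4 kidneys it had 0. The range of the 3 TLS thus overlapped that of the proteinuric nodes, because the TLS of mouse H20 (14.2 normalized reads) lay above the node of mouse H117 (8.90).

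Cfd (ENSMUSG00000061780, chromosome 10, 79890853-79892655) encodes adipsin, the protease complement factor D. It had 243 reads in the young node, 102, 219 and 274 in the antibody-positive nodes, and 62, 363 and 24 in the proteinuric nodes of mice H6, H20 and H117. In TLS it had 192 reads in mouse H20, 1 in mouse H6 and 0 in mouse H115, and no kidney had a read. At 151 normalized reads, the TLS of mouse H20 lay above the proteinuric nodes of mice H6 (89.8) and H117 (19.4).

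Retn (ENSMUSG00000012705, chromosome 8, 3655770-3660110), the gene of resistin, was low throughout. It had 12 reads in the young node, 4, 22 and 28 in the antibody-positive nodes, and 2, 9 and 0 in the proteinuric nodes of mice H6, H20 and H117. The TLS of mouse H20 had 3 reads, and the other TLS and the kidneys had 0. Lep (ENSMUSG00000059201, chromosome 6, 29060220-29073877), the gene of leptin, had 12 reads in antibody-positive node 2, 5 in antibody-positive node 3, 2 in the proteinuric node of mouse H20 and 0 in the other 11 libraries. Of the 10 genes, Lep was thus the one seen in the fewest nodes, 3 of 7. Neither gene passed the filter on low values in the fit of kidney, TLS and proteinuric nodes.

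The droplet genes followed the same libraries. Plin1 (ENSMUSG00000030546, chromosome 7, 79720218-79732903), the gene of perilipin 1, which guards the droplet against lipases, had 19 reads in the young node, 6, 36 and 50 in the antibody-positive nodes and 6, 19 and 10 in the proteinuric nodes of mice H6, H20 and H117. Cidec (ENSMUSG00000030278, chromosome 6, 113424634-113435760), whose product fuses droplets, had 37 reads in the young node, 10, 67 and 90 in the antibody-positive nodes and 20, 57 and 9 in the proteinuric nodes. There were 7 reads of Plin1 and 16 of Cidec in the TLS of mouse H20, and the other TLS and the 4 kidneys had none of either. Antibody-positive node 3 was the highest library for both genes.

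Cidea (ENSMUSG00000024526, chromosome 18, 67343604-67367785), the relative of Cidec that brown fat makes, had 123 reads in the young node, 11, 75 and 572 in the antibody-positive nodes and 43, 181 and 34 in the proteinuric nodes of mice H6, H20 and H117. It had 43 reads in the TLS of mouse H20, and the other 6 TLS and kidney libraries had 0. Ucp1 (ENSMUSG00000031710, chromosome 8, 83290352-83298452) had 203 reads in the young node, 8, 54 and 505 in the antibody-positive nodes and 112, 277 and 50 in the proteinuric nodes. In TLS it had 90 reads in mouse H20 and 0 in mice H6 and H115, and no kidney had a read. Both genes spread more widely among the antibody-positive nodes (from 7.42 to 579 normalized reads for Ucp1) than among the proteinuric nodes (from 40.5 to 262).

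Fabp4 and Pparg were not confined to these libraries. Fabp4 (ENSMUSG00000062515, chromosome 3, 10204088-10208576) is also made by capillary endothelium and macrophages. It had 771 reads in the young node, 130, 813 and 1467 in the antibody-positive nodes and 360, 1629 and 159 in the proteinuric nodes of mice H6, H20 and H117. The TLS had 53, 359 and 41 reads in mice H6, H20 and H115, and the kidneys had 48, 83, 67 and 18 in mice H6, H20, H115 and H117. The TLS of mice H6 and H115, at 44.9 and 44.7 normalized reads, lay within the range of the kidneys (from 32.0 to 77.7), and the TLS of mouse H20, at 282, lay above all 4 kidneys. In each of these libraries reads of endothelial genes (7 genes, such as Pecam1 and Cdh5) were present, at between 0.0147% and 0.0451% of reads in the TLS and kidneys and between 0.0109% and 0.0348% in the nodes. Macrophage genes (6 genes) took between 0.246% and 0.532% of reads in the nodes, between 0.133% and 0.220% in the TLS and between 0.0289% and 0.103% in the kidneys. Their part, and that of endothelium, in the level of Fabp4 was not tested.

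Pparg (ENSMUSG00000000440, chromosome 6, 115360951-115490399) is also expressed in urothelium and in some macrophages. It had 16 reads in the young node, 3, 11 and 26 in the antibody-positive nodes and 7, 23 and 19 in the proteinuric nodes of mice H6, H20 and H117. All 3 TLS had reads, 7, 12 and 5 in mice H6, H20 and H115, and no kidney had one. The TLS of mouse H20 stood little apart for this gene, at 9.43 normalized reads against 5.94 and 5.45 in the other TLS.

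**Figure D1:**
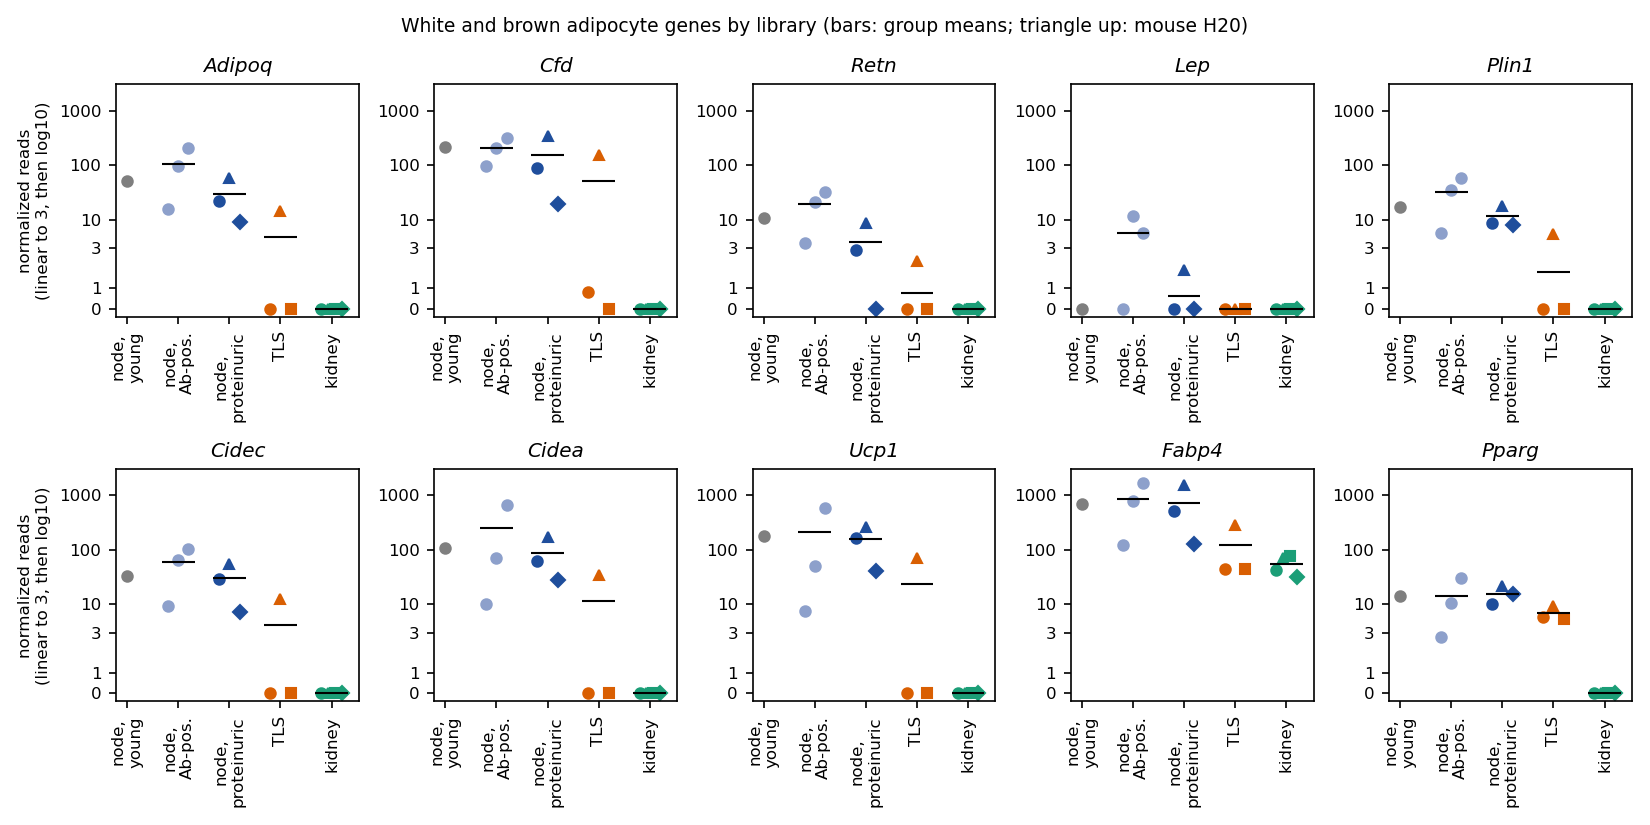
Normalized reads of each gene in every library, on an axis that is linear to 3 and log10 above, with horizontal bars for group means and, in proteinuric mice, circles, triangles, squares and diamonds for mice H6, H20, H115 and H117. For Adipoq, Retn, Plin1, Cidec, Cidea and Ucp1 the TLS of mouse H20 is the one TLS above 0, Lep is at 0 in all 3 TLS, and all 4 kidneys are at 0 for every gene but Fabp4.

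Per length of transcript, the order of the 10 genes over the 7 nodes was Fabp4, Cfd, Cidea, Ucp1, Adipoq, Cidec, Retn, Pparg, Plin1 and Lep. In RPKM, reads scaled to the library size and to each kilobase of transcript, Fabp4 had a level of 2283 ± 1699 (SD, n = 7), Cfd 533 ± 344, Cidea 352 ± 443 and Ucp1 286 ± 269. Adipoq had a level of 129 ± 118, Cidec 64.7 ± 45.3, Retn 25.5 ± 23.8, Pparg 23.2 ± 12.2, Plin1 19.8 ± 14.8 and Lep 2.18 ± 3.65 RPKM. Within nodes, Fabp4 was above Cfd in 7 of 7, Cidec above Retn in 7 of 7 and Plin1 above Lep in 7 of 7. Other neighbours changed places between nodes: Cidea was above Ucp1 in 3 of 7, Retn above Pparg in 4 of 7 and Pparg above Plin1 in 4 of 7. Cfd was above Cidea in 5 of 7, Ucp1 above Adipoq in 5 of 7 and Adipoq above Cidec in 6 of 7.

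Each node and TLS library was then described as a whole by the reads of the 8 genes other than Fabp4 and Pparg. In the young node they took 0.193% of reads (95% Wilson interval 0.179% to 0.208%), with 7 of the 8 genes seen. Antibody-positive node 1 had the smallest share of any node, 0.0398% (0.0341% to 0.0465%), followed by the proteinuric node of mouse H117 at 0.0404% (0.0342% to 0.0477%), and these intervals overlapped. Antibody-positive node 2 had 0.155% (0.143% to 0.168%), and node 3 had the largest share of all libraries, 0.435% (0.415% to 0.456%).

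Among the proteinuric nodes, that of mouse H20 had the largest share, 0.253% (0.238% to 0.270%), and that of mouse H6 had 0.0887% (0.0785% to 0.1001%). The share of the TLS of mouse H20, at 0.0998% (0.0901% to 0.111%), lay above those of 3 of the 7 nodes. Its interval overlapped that of 1 of these, the node of mouse H6. In normalized reads that node, at 377, lay above this TLS, at 290. The TLS of mouse H6 had 1 read of the 8 genes, in Cfd, and the TLS of mouse H115 had 0 of 334226 reads, which allows a share of up to 0.00115%. The node and the TLS with the most adipocyte reads among proteinuric mice thus came from the same animal, mouse H20, and its kidney tissue had 0 reads of these 8 genes. Only mice H6 and H20 had both a node and a TLS library. The intervals cover counting error only, since reads of amplified fragments are not independent molecules.

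The 6 markers of adipocytes (Adipoq, Plin1, Cidec, Lep, Lipe and Plin4) and 6 of brown adipocytes (Ucp1, Cidea, Dio2, Elovl3, Cox7a1 and Cox8b) were read in each library. Adipoq, Plin1, Cidec, Lep, Ucp1 and Cidea are themselves among the 10 genes. The counts of markers seen therefore largely restate their reads and do not stand as support for the name. Dio2, a brown fat deiodinase, was not in the table analysed here. Of the adipocyte markers, between 4 and 6 of 6 had reads in each node and 5 of 6 in the TLS of mouse H20, against 1 of 6 in the other TLS and at most 1 of 6 in each kidney. That one was Lipe, hormone-sensitive lipase, which had 3 reads in each of the TLS of mice H6 and H115 and at most 3 in a kidney. Of the 5 brown markers in the table, 4 or 5 had reads in each node and 5 in the TLS of mouse H20. Cox7a1 and Cox8b, subunits of cytochrome c oxidase, were not specific to these libraries: Cox8b had between 6 and 19 reads in the kidneys and Cox7a1 up to 35. Elovl3, a fatty acid elongase induced in brown fat by cold, had 12 reads in the young node, 19 in antibody-positive node 3, 8 and 24 in the proteinuric nodes of mice H6 and H20, and at most 1 in each other library. Kcnk3, a potassium channel, and Otop1, a proton channel, are known in brown fat and were named here after their values were seen. They had at most 10 and 9 reads, in antibody-positive node 3, and 2 and 1 in the TLS of mouse H20. Both had 0 reads in antibody-positive node 1, the proteinuric nodes of mice H6 and H117, the other TLS and the kidneys. Other listed brown adipocyte genes were not confined in this way, with 221 to 856 reads of Slc27a2 and 10 to 113 of Fabp3 in the kidneys.

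Genes of other tissues entered some of the same libraries. Only the TLS of mouse H20 had many reads of 6 adrenal cortex genes (287 reads, 0.0776% of its reads). All 6 were seen there, with 119 reads of Hsd3b1, 75 of Cyp21a1, 49 of Star, 23 of Cyp11b1, 15 of Cyp11a1 and 6 of Mc2r, the enzymes, carrier and hormone receptor of steroid synthesis. Antibody-positive node 1 had 11 such reads in 3 of the 6 genes, and the other 12 libraries had 0. The adrenal gland lies in the fat next to the kidney, and the part of such tissue in the adipocyte reads of this TLS was not tested.

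Skeletal muscle genes moved with antibody-positive node 3. All 8 of them were seen there (343 reads, 0.0876% of reads), with 93 reads of Acta1, 92 of Ckm and 50 of Tnnt3, against at most 1 read in each of the other 6 nodes. In TLS and kidneys, muscle reads were at most 31 a library and nearly all of Pvalb, which the distal tubule also expresses. Antibody-positive node 3 was also the node with the most reads of Ucp1, Cidea, Adipoq, Plin1, Cidec, Retn and Pparg, and the part of muscle or its fat in those levels was not tested.

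Urothelial genes (7 genes, uroplakins among them) were high in all 3 TLS, at 0.127% of reads in mouse H6, 0.0465% in mouse H20 and 0.205% in mouse H115. They were at most 0.00560% in each kidney and at most 0.00102% in each node. The TLS with adipocyte reads was therefore the one with the fewest urothelial reads. Proximal tubule genes took between 0.269% and 1.74% of reads in the TLS, and in the nodes at most 2 reads a library.

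**Figure D2:**
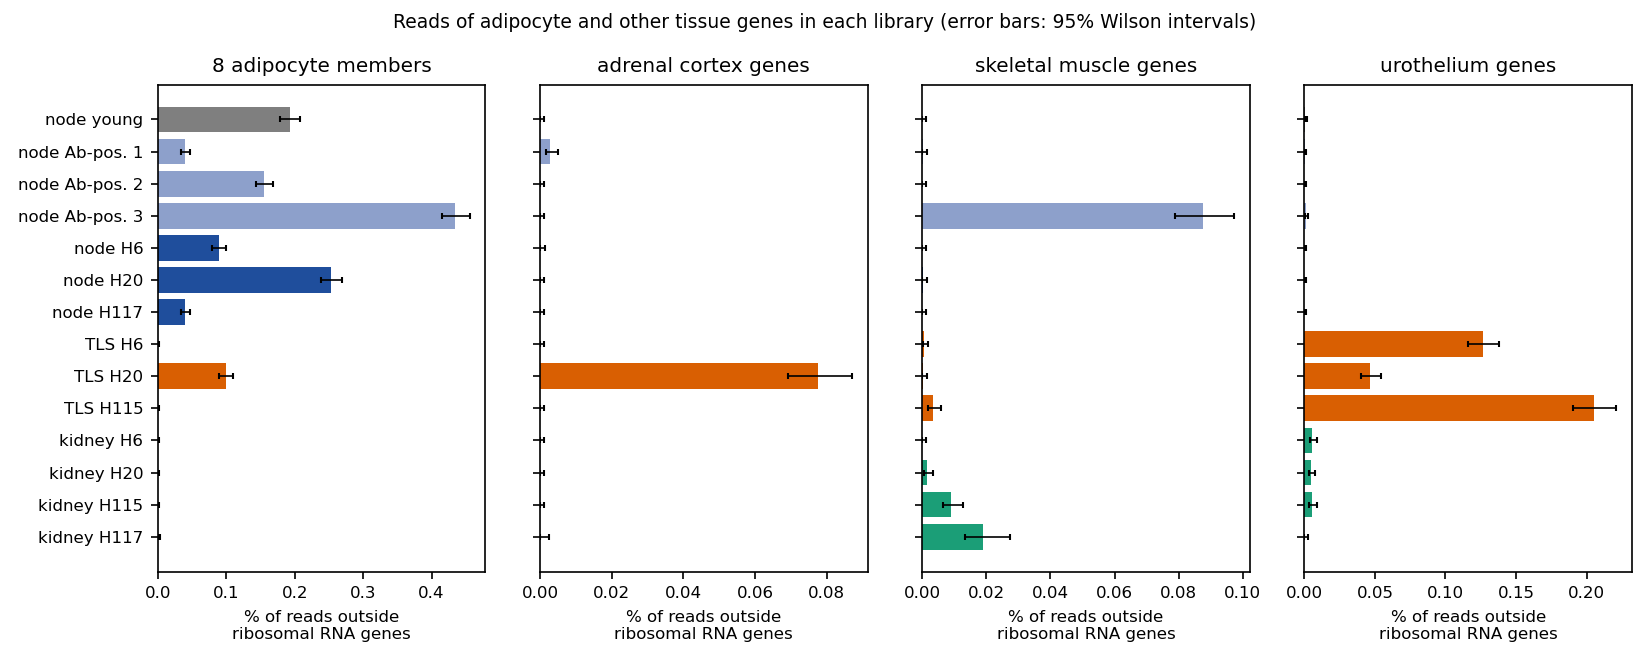
Bars give the percentage of reads outside ribosomal RNA genes that fell in the 8 adipocyte genes other than Fabp4 and Pparg, in 6 adrenal cortex, 8 skeletal muscle and 7 urothelial genes, in each library, with 95% Wilson intervals and a scale of its own in each panel. Adipocyte reads are seen in all 7 nodes and in the TLS of mouse H20, which is also the one library with 0.0776% of adrenal reads.

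Within mouse H20, the node and the TLS could be set against each other gene by gene, as 1 library each, with no test. Normalized reads in the TLS were 24.1% of those in the node for Adipoq (95% counting interval 13.4% to 41.3%), 27.0% for Ucp1 (21.0% to 34.3%) and 23.3% for Cidec (12.5% to 41.1%). For Plin1 the value was 30.6% (10.9% to 75.9%), for Retn 27.7% (4.82% to 111%) and for Cidea 19.7% (13.8% to 27.6%). These 6 intervals overlapped each other. Cfd was at 43.9% (36.7% to 52.4%), an interval above those of Ucp1 and Cidea that overlapped those of Adipoq, Cidec, Plin1 and Retn. Fabp4 was at 18.3% (16.3% to 20.5%) and Pparg at 43.3% (19.6% to 90.6%), both of them genes that the other TLS also carried.

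**Figure D3:**
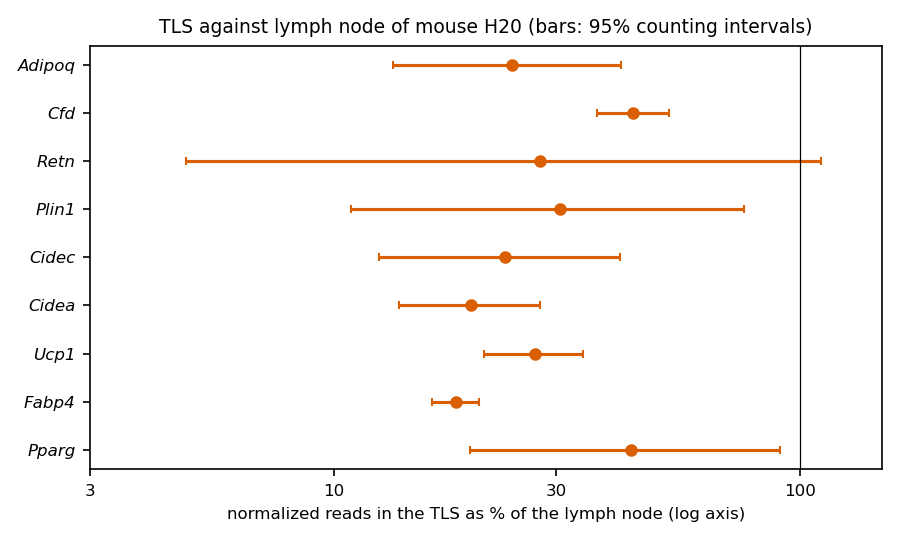
Points give normalized reads in the TLS of mouse H20 as a percentage of those in its lymph node, on a log axis, with 95% counting intervals and a line at 100%. Most genes lie between 18.3% and 30.6%, and the points of Cfd and Pparg lie higher, at 43.9% and 43.3%, with intervals that overlap those of Adipoq, Cidec, Plin1 and Retn.

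Comparison of kidney with TLS asked whether the dissected aggregates differed from the surrounding tissue. Of the 8 genes tested, Pparg alone was DE (1 of 8, against 14.7% of all 7382 genes tested). It was up-regulated in TLS, as 8.62% of genes were, with 6.94 ± 2.17 normalized reads (SD, n = 3) against 0 in all 4 kidneys, at least 1.30-fold higher when the kidneys are set at the floor of 3 reads a library (log2 fold change of kidney minus TLS -2.03, SE 0.33, adjusted p = 0.00163, limma). All 3 TLS lay above all 4 kidneys for Pparg, as for 13.4% of the genes tested. Of the urothelial genes, 5 of 5 tested were also up-regulated in TLS, and of the macrophage genes 1 of 5 (Lyz2, adjusted p = 0.012, limma). Within the TLS, Pparg was highest in mouse H20, where the urothelial share was lowest (0.0465%). The part of either cell type in the level of Pparg was not tested. The other 7 genes had adjusted p-values between 0.394 and 0.664. In 6 of them, all TLS reads but 1 of Cfd came from mouse H20. Without the TLS of mouse H20, Adipoq, Ucp1, Cidea and Cidec were at 0 in every library compared, and Fabp4 had a log2 difference of 0.22 (adjusted p = 0.903).

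Lymph nodes of proteinuric mice were compared with TLS. All 8 genes tested had higher means in the node, while the median log2 fold change over all genes was 0.04. Several of the 8 passed the filter mainly through the nodes, so this direction does not stand as support. There were 2 DE genes, up-regulated in the node (2 of 8 tested, against 1.69% of all genes up-regulated in the node and 10.6% in either direction). Both drew most of the mean used in the filter from the nodes, so the count describes these genes and does not stand as support. Cidea had 87.1 ± 75.1 normalized reads in the nodes (SD, n = 3) and 11.3 ± 19.5 in the TLS (log2 fold change 3.74, SE 1.02, adjusted p = 0.0418, limma). Cidec had 30.1 ± 23.4 in the nodes and 4.19 ± 7.26 in the TLS (log2 fold change 2.72, SE 0.79, adjusted p = 0.0464, limma). For both genes the TLS of mouse H20 lay above the node of mouse H117, so that the groups overlapped. All 4 kidneys, which share the estimate of spread in this fit, had 0 reads of both. The SE therefore does not measure the spread of nodes and TLS alone. In a fit of only these 2 tissues neither gene was DE. With the mouse as a block, Cidea had an adjusted p of 0.0587, Cidec of 0.0474 and Fabp4 of 0.0135, so that 2 genes were again called, Cidec and Fabp4.

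The other 6 genes did not pass. Ucp1 differed by 4.23 on the log2 scale (SE 1.27, adjusted p = 0.0676, limma), Adipoq by 2.67 (SE 0.79, adjusted p = 0.0525) and Plin1 by 2.10 (SE 0.64, adjusted p = 0.0557). Cfd, Fabp4 and Pparg had adjusted p-values of 0.281, 0.106 and 0.108. Plin1 and Pparg were the 2 genes whose 3 nodes all lay above the 3 TLS, as for 9.48% of all genes tested.

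The calls changed with the libraries in the fit. Without the TLS of mouse H20, 6 of the 7 genes then tested were DE, all but Pparg (adjusted p = 0.123), with Ucp1 at an adjusted p of 0.000208 and Cidea at 0.000393. Adipoq, Ucp1, Cidea and Cidec were then at 0 in every TLS and kidney and passed the filter through the nodes alone, so that they had to differ, and that count does not stand as support. Against the other TLS, set at the floor (3.27 normalized reads), the mean of the nodes was at least 47.4-fold higher for Ucp1 and at least 26.6-fold for Cidea. For Cidec it was at least 9.20-fold and for Adipoq at least 9.11-fold higher. These bounds hold for the means and not for each node. The node of mouse H117 had 40.5, 27.5, 7.28 and 8.90 normalized reads of these genes, in that order. Leaving out any 1 of the other TLS or of the kidneys, or the node of mouse H6 or of mouse H20, left 0 genes DE, and leaving out the node of mouse H117 left 4. Count tests of the recovered reads called 0 genes (edgeR quasi-likelihood) or 1 (DESeq2), which was Fabp4 (adjusted p = 0.0481).

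In kidney and proteinuric nodes, all 8 genes tested were DE and up-regulated in the node, against 20.8% of all genes tested (43.8% in either direction), and for all 8 the 3 nodes lay above the 4 kidneys, as for 23.3% of genes. A gene that passed the filter through the nodes alone had to differ, so the count describes these genes and does not stand as support. With the kidneys at the floor, the mean of the nodes was at least 29.1-fold higher for Ucp1 (adjusted p = 0.00294, limma), at least 28.4-fold for Cfd (0.0176) and at least 16.4-fold for Cidea (0.00161). The mean of Cidec was at least 5.65-fold, of Adipoq at least 5.60-fold, of Pparg at least 2.96-fold and of Plin1 at least 2.18-fold higher. Single nodes could lie well under these bounds: Cfd had 151 ± 171 normalized reads in the nodes and 19.4 in that of mouse H117. Fabp4, present in all kidneys, was higher in the nodes by a log2 difference of 3.12 (SE 0.82, adjusted p = 0.00893), with 731 ± 730 normalized reads (n = 3) against 55.5 ± 21.8 (n = 4). The 3 tissue comparisons share libraries.

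**Figure D4:**
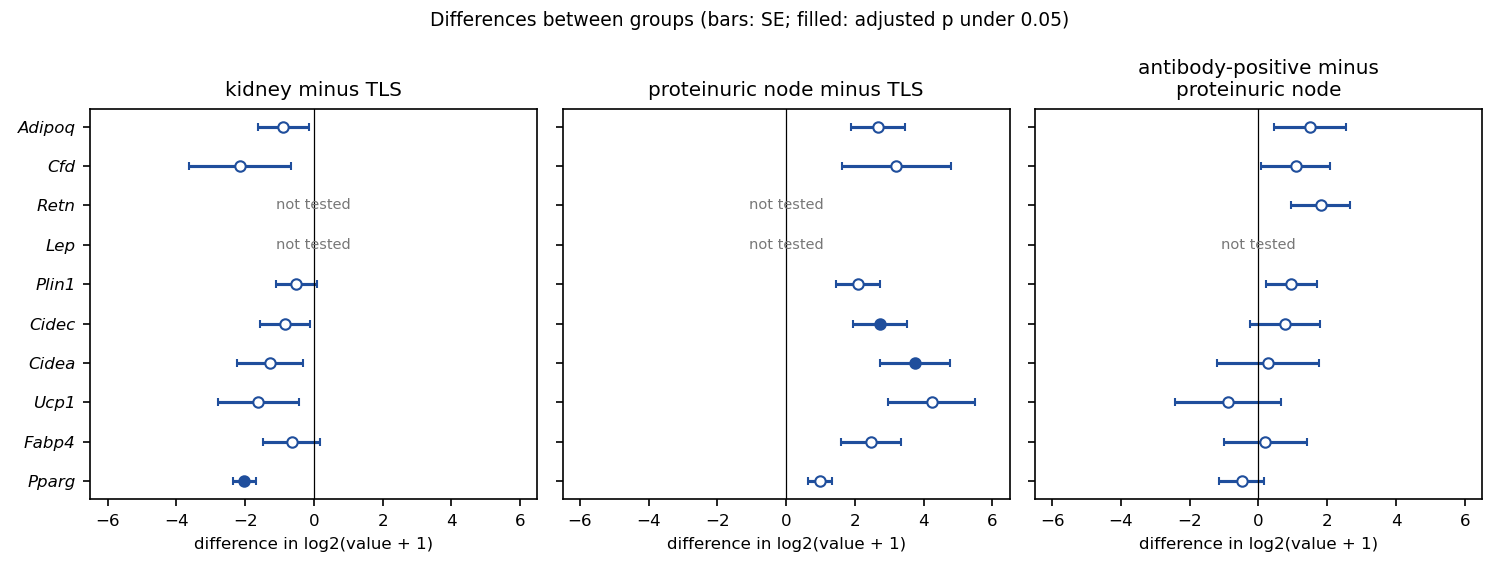
Points give the difference in log2(value + 1) between groups for each gene with its SE, filled where the adjusted p was under 0.05. Pparg is filled in kidney minus TLS, Cidec and Cidea in node minus TLS, and none in the comparison of the nodes.

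Antibody-positive and proteinuric nodes were compared to see whether the stage of disease went with the level. None of the 9 genes tested was DE, as 0 of 6810 genes were (0% of all genes, limma, adjusted p = 0.998 for each of the 9). At an unadjusted p under 0.05, 215 genes of the table (3.16%) and none of the 9 passed, DESeq2 called 13 genes and edgeR 0, none of them among the 9. The groups overlapped for all 10 genes, whereas 6.08% of the genes tested lay wholly above in antibody-positive and 2.5% in proteinuric nodes. Retn differed most against its error, 18.9 ± 14.3 normalized reads in antibody-positive and 3.81 ± 4.34 in proteinuric nodes (n = 3 each), a log2 difference of 1.82 (SE 0.86). Ucp1 differed by -0.89 (SE 1.53) and Cidea by 0.28 (SE 1.47), in both cases less than the error. The antibody-positive nodes themselves ran from 0.0398% to 0.435% of reads in the 8 genes.

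Ucp1 was set against Adipoq, and Cidea against Cidec, to read the brown genes relative to genes that both kinds of adipocyte make. The pairs were chosen with the values known. Ucp1 made up 32.0% of the reads of Ucp1 and Adipoq in antibody-positive node 1 (95% Wilson interval 17.2% to 51.6%) and 35.3% in node 2 (28.2% to 43.1%). In the other libraries it made up 73.8% (antibody-positive node 3), 78.4% (young node), 88.2%, 81.7% and 82.0% (proteinuric nodes of mice H6, H20 and H117) and 83.3% (TLS of mouse H20). The first 2 intervals lay below those of the other 6 libraries.

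The log2 ratio of Ucp1 to Adipoq reads was -0.16 ± 1.43 in antibody-positive and 2.42 ± 0.42 in proteinuric nodes (SD, n = 3 each). The groups did not overlap, and the exact two-sided permutation test gave p = 0.1, the smallest that 3 against 3 allows (0.2 adjusted over 2 ratios). Since the pairs were chosen with the values known, this separation is a description and does not stand as support. For Cidea and Cidec the log2 ratio was 0.99 ± 1.45 and 1.56 ± 0.42, and the exact permutation p was 0.6. Cidea made up 52.4% and 52.8% of the reads of both genes in antibody-positive nodes 1 and 2 and between 68.3% and 86.4% in the other 6 libraries. The node and the TLS of mouse H20 had like shares for both pairs, 81.7% and 83.3% for Ucp1 and 76.1% and 72.9% for Cidea, with overlapping intervals.

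**Figure D5:**
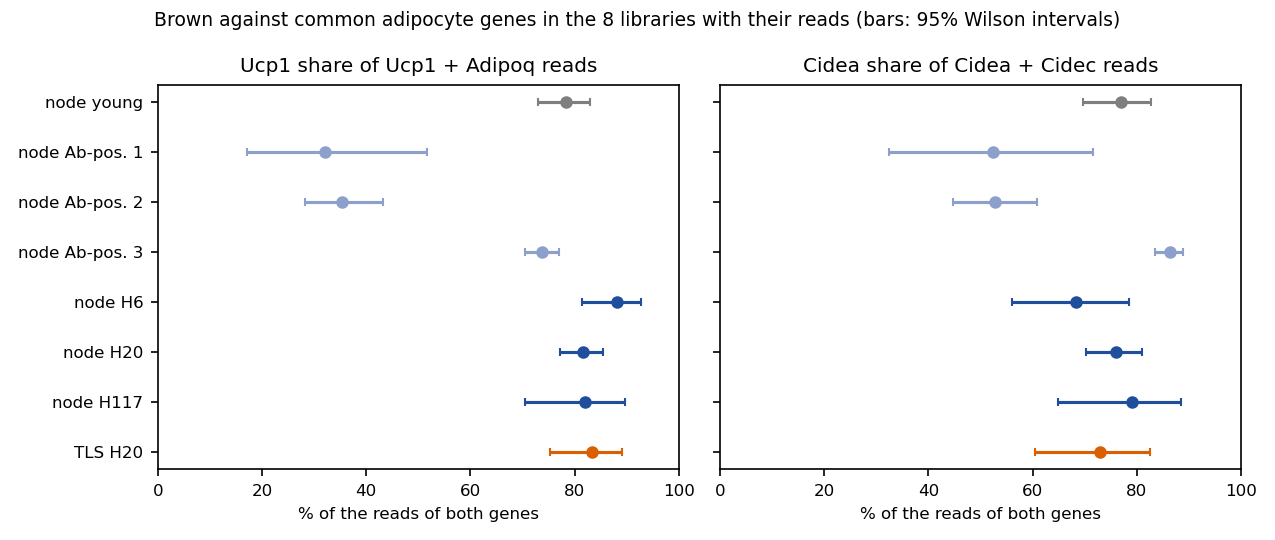
Points give Ucp1 as a percentage of the reads of Ucp1 and Adipoq (left) and Cidea as a percentage of the reads of Cidea and Cidec (right), with 95% Wilson intervals, in the 8 libraries that held these reads. Antibody-positive nodes 1 and 2 lie lowest in both panels.

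The 9 further lists of adipocyte biology were read in the same fits. In kidney versus TLS, 1 of 9 tested transcription factors was DE (Mlxipl, the carbohydrate-sensing factor ChREBP, up-regulated in kidney with a log2 fold change of 1.75, SE 0.52, adjusted p = 0.0397, limma). Of the lists of lipid uptake (5 tested), of precursors and stroma (9 tested) and of other secreted products (8 tested), 1 gene each was DE: Fabp5, an epidermal-type fatty acid carrier, and Dcn, the matrix proteoglycan decorin, were up-regulated in TLS, and Agt, angiotensinogen, in kidney. In all, 6.07% of genes were up-regulated in kidney. None was DE among 9 droplet and lipolysis genes, 12 lipid synthesis genes, 2 glucose uptake genes, 7 brown adipocyte genes and 2 caveolae genes.

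In node versus TLS, Nr1h3, the liver X receptor alpha, was DE and higher in the node (log2 fold change 1.16, adjusted p = 0.0231, limma). Agt and Slc27a2, a fatty acid transporter of the proximal tubule as well, were DE and higher in TLS, by log2 fold changes of -2.78 and -5.92, as 8.87% of all genes were higher in TLS. No other gene of these lists was DE. The median log2 fold change was 2.69 over the 8 adipocyte genes tested and between -0.58 and 0.80 over the 9 lists, against 0.04 over all genes. The genes and lists were chosen with earlier results known, and several of the 8 passed the filter mainly through the nodes. These medians are therefore a description and do not stand as support. Many genes of the 9 lists are made by other tissues too, as Slc27a2 with between 221 and 856 reads in the kidneys, and so are less specific to fat.

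Some genes of these lists with at most 1 read in each kidney had reads in the TLS of mouse H20 and none in the other TLS. They were Thrsp, Plin4, Adrb3, Acaca, Pnpla3, Plin5, Elovl3, Kcnk3 and Otop1, of which Acaca had 8 reads there. Not every such gene did so: Hilpda, a small lipid droplet protein, had 5 reads in the TLS of mouse H6 and 2 in that of mouse H20. Rbp4 had 5 and 19 reads in these 2 TLS, Ebf1 had 1 read in each TLS and Ucp3 had 0. Thrsp, a nuclear regulator of fat synthesis, had 298 reads in the young node, 37, 279 and 718 in the antibody-positive nodes, and 73, 389 and 55 in the proteinuric nodes of mice H6, H20 and H117. In the TLS of mouse H20 its normalized reads were 25.0% of those in the node of that mouse (20.1% to 30.8%), and each of the other TLS and kidneys had at most 1 read. Plin4, a perilipin, had 5 reads in the TLS of mouse H20 and between 0 and 11 in the nodes, and Adrb3, the beta-3 adrenergic receptor, had 3 and between 0 and 7. Neither had a read in the other TLS or in a kidney.

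Of 7399 genes whose mean value was 5 or more, those whose log2 values ran most like Adipoq over the 14 libraries were Thrsp (Pearson r = 0.983), Car3 (0.967), Mrap (0.966), Slc36a2 (0.952), Rbp4 (0.946), Fasn (0.944), Orm1 (0.939) and Adig (0.936). Those most like Ucp1 were Thrsp (0.973), Adig (0.970), Mrap (0.939), the processed pseudogene Gm6166 (0.938), Hp (0.917), Rbp4 (0.912), Prkar2b (0.912) and Fasn (0.907). Thrsp, Fasn and Adig belong to fat synthesis and adipocyte development, Rbp4 encodes a retinol carrier and Hp haptoglobin, all of which adipocytes make. Car3, a carbonic anhydrase that muscle also makes, was highest in antibody-positive node 3 (654 reads), and Mrap, a partner of the adrenal ACTH receptor, had 8 reads in the TLS of mouse H20 and 43 in antibody-positive node 3. Of the 10 genes themselves, Cidec (0.993), Plin1 (0.992), Cidea (0.974), Cfd (0.959), Fabp4 (0.951), Retn (0.942) and Ucp1 (0.935) had higher correlations with Adipoq than Pparg (0.817) and Lep (0.673). The libraries share tissue and depth, many of these genes are at or near 0 in the kidneys, and the correlations are a description.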

How the data were processed

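RNA of 14 libraries was analysed. Per the authors' methods, CLC Genomics Workbench 8 was used with its defaults to trim, map to GRCm38 and count the reads. The strand setting is not given in the sources used here. The authors deposited a signal for each gene in each library. Its values are reads plus 1, divided by a DESeq size factor, and every library was mapped to its column by title. In 100.0% of values the reads came out whole (tolerance 0.01). Of 13982 genes, 406 had no read.

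The 10 genes and all gene lists were chosen with earlier results of these data known. Every 1 of the 10 is named. From the other adipocyte lists, genes DE in kidney or lymph node versus TLS are named, at most 3 a list, largest fold change first. For likeness, the 8 genes with the highest Pearson correlation with Adipoq and with Ucp1 were taken. Signal was tested as log2(value + 1) with limma 3.58.1 (trend, robust) in R 4.3.3, Benjamini-Hochberg adjusted over all genes with a mean of 5 or more, and called DE at an adjusted p under 0.05. Fold changes on that scale understate the change of low genes. The 10 libraries of proteinuric mice (kidney, TLS, lymph node) were fitted together, and the 6 antibody-positive and proteinuric nodes in a fit of their own. The young node was described only. Alternatives were edgeR 4.0.16 and DESeq2 1.42.0 on the recovered reads, other filters, pseudocounts and scalings, the mouse as a block, and leaving out libraries. The limma fit was tested on simulated data. Ribosomal reads are those of 4 genes, 2 of them mitochondrial. Shares have 95% Wilson intervals, and RPKM used the longest principal transcript and reads outside those 4 genes. Gene positions are from GENCODE M21 on GRCm38. Libraries with one mouse code in the labels were taken as one animal, from the labels alone. The correlation of deviations from tissue means did not separate such pairs, with a median of 0.114 (from -0.335 to 0.454) in 8 pairs of one mouse and 0.0353 (from -0.498 to 0.512) in 25 pairs of different mice. No 2 libraries of a group agreed within sampling noise (chi-square per degree of freedom at least 4.14). The 15 whole-kidney libraries of the series were not analysed here.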

Additional observations from a re-analysis of the deposited data

Results flagged for a closer look

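The young node entered no test, and 9 of the 10 genes had more than 3 reads in it: Adipoq had 56, Cfd 243, Plin1 19, Fabp4 771, Retn 12, Ucp1 203, Cidea 123, Cidec 37 and Pparg 16 reads. It is 1 library of 1 mouse aged 4 weeks. For each of these genes its normalized reads lay within the range of the other 6 nodes. In the kidneys, the 1 group large enough for a test of a single stray library, Fabp4 was the only gene with reads, and none of the 4 libraries stood apart.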

How the results depend on the processing

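With the mouse as a replicate block, the number of the 10 genes DE was 1 in kidney versus TLS, 2 in lymph node versus TLS and 8 in kidney versus lymph node, as without it. In lymph node versus TLS the block lost Cidea and added Fabp4, and no other call of the 10 genes changed under it. In kidney versus TLS the count was 0 with a mean of at least 10 or only the 2 tissues, where Pparg no longer passed the filter, 2 with DESeq2, and 1 in every fit that left out a library. In lymph node versus TLS the main count of 2 (Cidea and Cidec) became 1 with a pseudocount of 0.1 (Cidea), with a pseudocount of 5 and with no filter (in both Plin1 in place of Cidea and Cidec) and with DESeq2 (Fabp4 in their place). It was 2 with a mean of at least 10, where Ucp1 replaced Cidec, 0 with edgeR under either scaling, with RPM scaling, with only the 2 tissues and without the 3 libraries rich in ribosomal RNA, and 7 with all 7 nodes as a group. It was between 0 and 6 when 1 library was left out, with 6 without the TLS of mouse H20. In kidney versus lymph node it was between 6 and 9, and between antibody-positive and proteinuric nodes 0 under all 15 alternatives. Over all genes, counts were 1084 in kidney versus TLS (530 to 1344 over the alternatives, 530 without the TLS of mouse H6 and 692 without the kidney of mouse H115), 780 in lymph node versus TLS (408 to 1280) and 0 between the nodes (8 with no filter, 13 with DESeq2, up to 5 with 1 library left out).

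Without the TLS of mouse H20, the log2 difference of kidney minus TLS turned to 0.12 for Adipoq, Ucp1, Cidea and Cidec, for which no library then held a read, and to 0.22 for Fabp4. With 1 library left out it lay between -1.43 and 0.12 for Adipoq, -2.53 and 0.12 for Ucp1, -2.01 and 0.12 for Cidea, -1.36 and 0.12 for Cidec and -1.08 and 0.22 for Fabp4. Between antibody-positive and proteinuric nodes, Ucp1 turned to 0.47 and 0.48 with edgeR (TMM and DESeq2 size factors) and 0.48 with DESeq2. With 1 library left out, it lay between -2.46 and 0.52 for Ucp1, -0.73 and 1.27 for Fabp4, -1.21 and 1.67 for Cidea and -1.17 and 0.21 for Pparg. The 0.12 is the value that 0 reads give when reads plus 1 are divided by the size factors. The cause of the other turns was not tested. Another scaling moved the median of all genes by up to 0.18 (TMM, lymph node versus TLS), and the share of DE genes higher in kidney from 41.3% to 20.4% (TMM, kidney versus TLS) and of those higher in the node from 16% to 2.50% (RPM scaling, lymph node versus TLS). Genes with under 3 reads in a library, Lep and Retn above all, lie at the limit of this depth.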
